A study of Mus musculus with 32 samples.

Results

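Lipogenic enzymes and the transcription factors that drive them were followed through liver regeneration and liver development in CD-1 mice. The set holds 10 genes of the 18194 measured: the transcription factors Srebf1 and Mlxipl, the enzymes Acly, Acaca, Acacb, Fasn, Elovl6 and Scd1, the acetyl-CoA carboxylase activator Mid1ip1 and the lipid droplet protein Pnpla3. They were chosen by name for their known roles, and each was read from the probe set with the highest mean over all 32 arrays among those listed with 1 gene. All 10 had such a probe set, and no filter on low values removed any of them.

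Expression was measured on Affymetrix Mouse Genome 430 2.0 arrays. There were 18 arrays of liver from 10-week-old females after partial hepatectomy, in which most of the organ and the gallbladder are removed, early (1, 2 and 6 h), in the middle (12, 18, 24 and 30 h) and late (48 and 72 h). The labels name ketamine and xylazine as anaesthetics and buprenorphine as the analgesic after surgery. There were 12 arrays of embryonic liver, from 10.5 to 14.5 days post conception in steps of 1 day and at 16.5 days. The control was normal liver of 10-week-old females (time 0, 2 arrays). Each of the 16 groups had 2 arrays, and each array held RNA pooled from at least 3 tissues of different animals, so that p-values measure the spread between such pools. No sham-operated group was among the samples, so surgery and tissue loss cannot be told apart.

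De novo lipogenesis turns surplus carbohydrate into fatty acid, and the liver is one of its main sites. Citrate is cleaved to acetyl-CoA, acetyl-CoA is carboxylated to malonyl-CoA, fatty acid synthase builds palmitate from both, and elongases and desaturases turn palmitate into longer and unsaturated acids. Insulin acts on this pathway largely through SREBP-1c, encoded by Srebf1, and glucose through ChREBP, encoded by Mlxipl.

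On the mouse genome GRCm38.p6, Srebf1 lies at chr11:60199084-60224186, Mlxipl at chr5:135089890-135139768, Fasn at chr11:120805958-120825166, Scd1 at chr19:44394450-44407709 and Pnpla3 at chr15:84167776-84189521. The promoters of the set are shown for the letters that both kinds of factor are known to bind. RefSeq promoter windows of GRCm38.p6 were matched for 9 of the 10 genes (12 windows), and the 250 bases before each transcript start were searched on both strands. The sterol regulatory element, searched as TCACNCCAC, was found in 1 of the 12 windows and in 1.05% of 32851 windows of all genes. The E-box CACGTG was also found in 1 of 12 windows, against 6.02% of all, and both matches were in windows of Mlxipl. CCAAT, the letters bound by NF-Y, was found in 6 of 12 windows from 5 genes, against 33.8% of all, and the GC box GGGCGG in 6 of 12 from 5 genes, against 32.7%. Both Mlxipl windows are printed for these matches, that of Fasn for its 3 CCAAT matches, of which the last 2 overlap, and that of Pnpla3 because its values changed at more times than those of the other members. Capitals mark the sterol regulatory element, the E-box or CCAAT on either strand. A match is a description of the letters in the window, not a binding site.
Mlxipl, chr5:135106641-135106890, + strand: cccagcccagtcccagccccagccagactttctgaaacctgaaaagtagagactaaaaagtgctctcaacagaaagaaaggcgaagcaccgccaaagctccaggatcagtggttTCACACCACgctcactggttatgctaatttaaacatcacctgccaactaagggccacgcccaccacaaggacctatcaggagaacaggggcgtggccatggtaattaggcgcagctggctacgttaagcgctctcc
Mlxipl, chr5:135089640-135089889, + strand: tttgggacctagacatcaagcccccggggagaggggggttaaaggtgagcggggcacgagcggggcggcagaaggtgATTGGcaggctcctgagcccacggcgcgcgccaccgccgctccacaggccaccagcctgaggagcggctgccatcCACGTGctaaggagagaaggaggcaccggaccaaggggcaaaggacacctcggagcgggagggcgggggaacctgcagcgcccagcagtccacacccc
Fasn, chr11:120824548-120824797, - strand: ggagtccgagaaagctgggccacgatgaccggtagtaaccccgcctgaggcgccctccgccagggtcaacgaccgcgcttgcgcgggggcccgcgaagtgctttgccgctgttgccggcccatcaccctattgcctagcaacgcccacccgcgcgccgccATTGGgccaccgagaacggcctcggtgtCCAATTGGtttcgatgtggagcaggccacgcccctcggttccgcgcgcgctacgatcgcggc
Pnpla3, chr15:84167566-84167815, + strand: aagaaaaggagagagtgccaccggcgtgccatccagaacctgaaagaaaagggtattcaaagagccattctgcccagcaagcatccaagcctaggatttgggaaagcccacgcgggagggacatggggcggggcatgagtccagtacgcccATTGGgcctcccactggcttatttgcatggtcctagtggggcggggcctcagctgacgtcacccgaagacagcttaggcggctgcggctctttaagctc
The sterol regulatory element of the first window starts at position -136 from the transcript start and the E-box of the second at -98. In Fasn the CCAAT matches start at -90, -62 and -59, and in Pnpla3 at -99.

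Levels below are array intensities on a linear scale, as deposited. Changes are differences of log2(value + 16) between group means, with the standard error after ±, and they understate the change of low values. They come from a limma fit of all 32 arrays and all 18194 genes, with Benjamini-Hochberg adjustment within each comparison. Lowered, raised, fell and rose refer to an adjusted p under 0.05. The times were also averaged in 3 phases, early (1 to 6 h), middle (12 to 30 h) and late (48 to 72 h). Levels of different genes come from different probe sets and are not compared with each other.

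After hepatectomy the set fell in the middle of the time course. At 12 to 30 h 8 of the 10 genes were lowered and 0 were raised, while 2.18% of all genes were lowered. Of these 8, Acaca (-0.34) and Acacb (-0.42) were not called with the mean of their probe sets. The median change of the 10 was -1.41, against 0 for all genes. At 1 to 6 h 3 members were lowered (0.253% of all genes) and at 48 to 72 h 4 were (0.638% of all genes), with medians of -0.40 and -0.86. By single time, 1 member was lowered at 1 h (0.0824% of all genes) and 0 at 2 h by limma (0.126%), where 3 had an unadjusted p under 0.05. The count was 5 at 6 h (1.06%) and 8 at 12 h (4.64%), then 6 at 18 h (3.26%) and 9 at 24 h (0.605%). At 30 h 1 was lowered (0.0934%), and 3 each at 48 h (0.863%) and 72 h (0.319%). That is 36 of 90 pairs of gene and time, or 40%, against 1.23% of the pairs of all genes, and no member was raised at any time. Of all genes, 0.401% (1 h), 0.445% (2 h), 1.06% (6 h), 4.23% (12 h), 4.47% (18 h), 0.643% (24 h), 0.258% (30 h), 0.638% (48 h) and 2.83% (72 h) were raised. The late counts rest on the adjusted p. At 48 h all 10 were below time 0 with an unadjusted p under 0.05 (limma), and the median was -1.07, against -1.04 at 6 h. At 30 h 4 members and at 72 h 6 had such a p, with medians of -0.54 and -0.81. The second array of 48 h had high log2 ratios of 3 prime over 5 prime probes (2.42 for Actb and 1.22 for Gapdh). Scd1 read 648 on it, against 3580 on the first. With array weights 2 members were lowered at 48 to 72 h, and with quantile normalization 8. In whole tissue fewer cells of a type and less RNA per cell cannot be told apart. These comparisons share the 2 arrays of time 0. Without the first of them the 3 phases had 0, 6 and 1 members lowered, and 19 of the 90 pairs were. Without the second the counts were 2, 6, 3 and 29. With the 20 adult arrays fitted alone, 5 members were lowered at 12 to 30 h. At 48 to 72 h the count was 7 without the first array of 48 h and 2 without the first of 72 h, and at 1 to 6 h it was 1 without the first array of 1, 2 or 6 h. By a moderated F test across the 9 times, 9 of the 10 genes varied, against 18.2% of all genes, and the exception was Scd1 (adjusted p = 0.0762, limma).

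**Figure D1:**
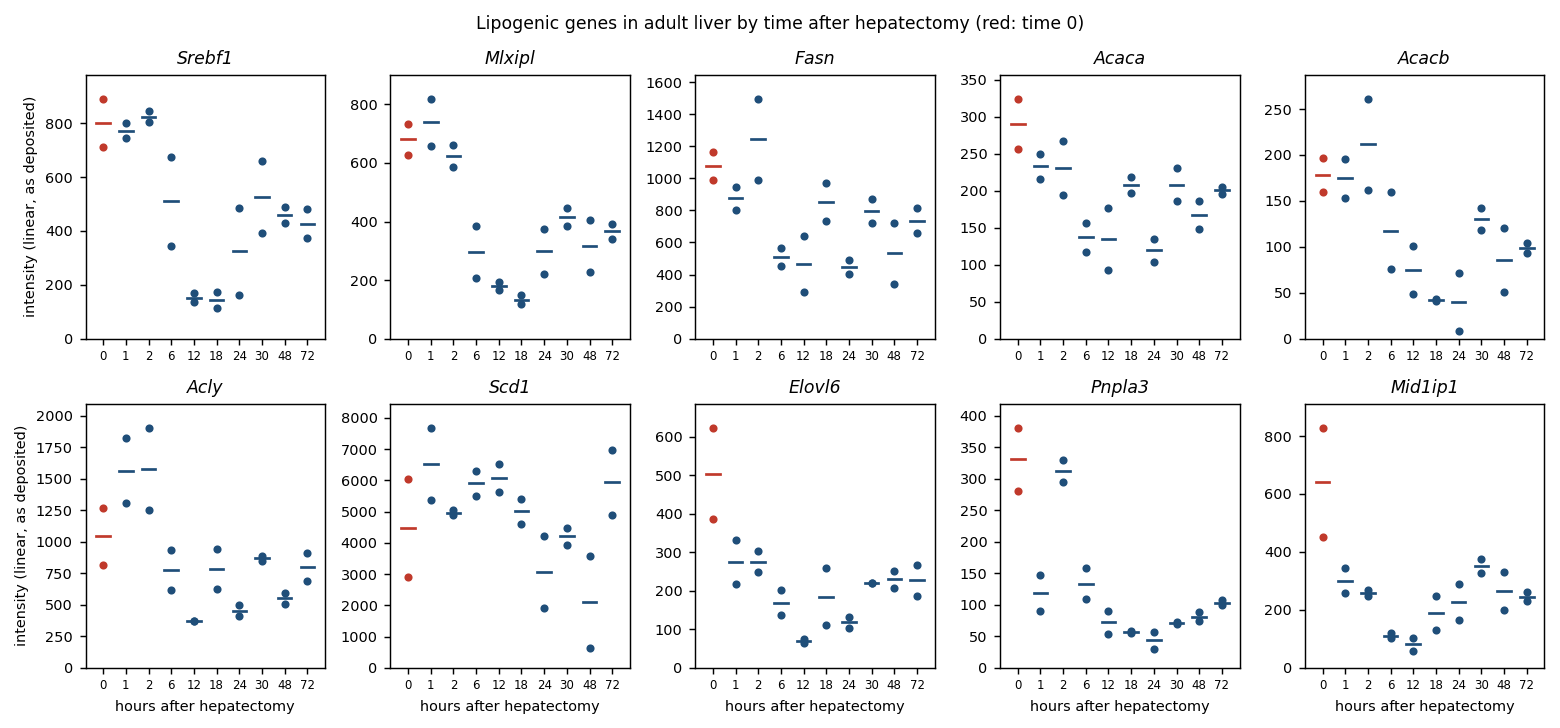
Intensity on a linear scale as deposited (vertical axis) of the 10 genes in adult liver, by hours after hepatectomy, with time 0 in red. Points are single arrays and bars are group means of 2 arrays. Except for Scd1, the lowest group mean of each gene lies between 12 and 24 h.

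Both transcription factors had their lowest levels at 18 h. Srebf1, the source of SREBP-1c, which switches on most genes of fatty acid synthesis, read 892 and 712 at time 0, 745 and 799.6 (1 h), 846 and 804 (2 h) and 343 and 676 (6 h). It read 169.8 and 135.4 (12 h), 175 and 114.7 (18 h), 485 and 162 (24 h) and 394 and 662 (30 h). The last values were 488 and 428 (48 h) and 373 and 481 (72 h). All 8 arrays of 12 to 30 h and all 4 of 48 to 72 h lay below both arrays of time 0, while the 4 arrays of 1 and 2 h lay within the range of time 0. Its log2 change was -2.28 ± 0.34 at 12 h (limma, adjusted p = 0.000189), -2.36 ± 0.34 at 18 h (adjusted p = 0.000145) and -1.44 ± 0.34 at 24 h (adjusted p = 0.0371). The arrays of 24 h differed from each other, and without the second the change there was -0.70 and not called, as it was not without either array of time 0 (-1.28 and -1.60). Over 12 to 30 h Srebf1 fell by 1.68 ± 0.27 on the log2 scale (adjusted p = 0.000749). The 72 h mean was 53.2% of that at time 0, a log2 change of -0.89 that was not called (adjusted p = 0.216).

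Mlxipl, the source of the glucose-responsive factor ChREBP, read 628 and 735 at time 0, 657 and 820.1 (1 h), 586 and 662 (2 h) and 207 and 386 (6 h). It then read 192 and 165.4 (12 h), 149 and 117 (18 h), 376 and 220.4 (24 h) and 385 and 446 (30 h), and 406 and 228 (48 h) and 342 and 393 (72 h). From 6 h on, each array was below both arrays of time 0. Mlxipl was lowered at 6 h (-1.21 ± 0.26, limma adjusted p = 0.0135), 12 h (-1.84, adjusted p = 0.000115), 18 h (-2.23, adjusted p = 1.43e-05), 24 h (-1.19, adjusted p = 0.0237) and 48 h (-1.12, adjusted p = 0.0351). The calls at 6, 24 and 48 h ended without either array of time 0, with changes of -1.0 to -1.32, and without 1 array of the time itself (-0.72 to -0.83). At 18 h its mean was 19.5% of that at time 0, and at 72 h 54.0%. Across the 10 adult group means Srebf1 and Mlxipl had a correlation of 0.95, as a description of groups that share arrays.

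The enzymes that start the pathway were lowered at 12 and 24 h, or at 18 and 24 h in Acacb. Acly, which cleaves citrate to acetyl-CoA, read 819 and 1267 at time 0, 1306 and 1823 (1 h), 1254 and 1904 (2 h) and 619 and 938 (6 h). It read 374 and 373 (12 h), 939 and 626 (18 h), 501 and 407 (24 h), 888 and 846 (30 h), 591 and 510.1 (48 h) and 688 and 911 (72 h). Of the 4 arrays of 1 and 2 h, 3 were above both arrays of time 0, but those changes (0.59 ± 0.26 at both times) were not called, while the pairs of 12, 24 and 48 h were below both. Acly was lowered at 12 h (-1.41 ± 0.26, limma adjusted p = 0.00121) and 24 h (-1.15 ± 0.26, adjusted p = 0.0279), and between these times it was not called (-0.40 at 18 h). Over 12 to 30 h its log2 change was -0.80 ± 0.20 (adjusted p = 0.0247), and -0.49, no longer called, once the second array of time 0 was left out. The call at 24 h also ended without that array (-0.84) or the second of 24 h (-1.0).

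Acaca, the cytosolic acetyl-CoA carboxylase that makes malonyl-CoA for synthesis, read 324 and 256 at time 0, 216 and 249 (1 h), 195 and 266 (2 h) and 117 and 157 (6 h). It read 177 and 92.4 (12 h), 218 and 197 (18 h), 134 and 104 (24 h) and 186 and 230.0 (30 h), and 185 and 148 (48 h) and 205 and 196 (72 h). Of 18 arrays after hepatectomy, 17 were below both arrays of time 0. It was lowered at 6 h (-1.01 ± 0.22, limma adjusted p = 0.0139), 12 h (-1.07, adjusted p = 0.00279) and 24 h (-1.18, adjusted p = 0.00598). The change over 12 to 30 h was -0.79 ± 0.17 (adjusted p = 0.00908), and -0.63, no longer called, once the first array of time 0 was left out. Without that array the calls at 6 and 24 h ended as well (-0.85 and -1.02), and each of the 3 single times lost its call without 1 of its own arrays (-0.66 to -1.02). A second probe set of Acaca changed by 0.10 over the same phase, and with the mean of both the change was -0.34 and not called.

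Acacb, the carboxylase at the mitochondrial outer membrane whose malonyl-CoA restrains fatty acid oxidation, read 196 and 159.7 at time 0. After hepatectomy its 18 arrays ran from 8.57 to 261 with a median of 102. The pairs were 100.4 and 48.9 (12 h), 41.4 and 42.9 (18 h) and 71.9 and 8.57 (24 h). All 8 arrays of 12 to 30 h were below both of time 0, and the log2 change was -1.73 ± 0.42 at 18 h (limma, adjusted p = 0.0124), -2.05 ± 0.42 at 24 h (adjusted p = 0.0138) and -1.33 ± 0.33 over the phase (adjusted p = 0.0207). Neither these times nor the phase were called without either array of time 0, with -1.20 and -1.47 for the phase, and the call at 24 h ended without its second array (-1.13). These values belong to the probe set with the higher mean of deposited values. The other, which has the higher mean of log2 values, read between 4.61 and 80.9 on the adult arrays and changed by 0.49 over 12 to 30 h, not called. The direction for Acacb therefore rests on which of the 2 probe sets is read.

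Fasn, the fatty acid synthase, alternated between low and higher levels. It read 988 and 1163 at time 0, 805 and 948 (1 h), 993 and 1498 (2 h) and 451 and 564 (6 h). It then read 641 and 291 (12 h), 974 and 733 (18 h), 405 and 492 (24 h), 721 and 871 (30 h), 723 and 340.1 (48 h) and 657 and 816 (72 h). From 6 h on, each array was below both arrays of time 0. Fasn was lowered at 12 h (-1.28 ± 0.31, limma adjusted p = 0.0101) and 24 h (-1.23 ± 0.31, adjusted p = 0.0488), and the call at 24 h was lost in 35 of 44 alternatives. At 12 h the call ended without the second array of time 0 (-1.16) or of 12 h (-0.73). At 18 h, between those times, the log2 change was -0.34 (adjusted p = 0.657). Over 12 to 30 h it was -0.82 ± 0.24 and missed the threshold (adjusted p = 0.0553). The group means of Fasn and Acaca had a correlation of 0.93 over the 10 adult groups.

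Elovl6, the elongase that takes palmitate to stearate, was lowered at 5 of 9 times. It read 623 and 385 at time 0, 216 and 332 (1 h), 248 and 304 (2 h) and 137 and 202 (6 h). It read 63.8 and 74.7 (12 h), 259 and 111 (18 h), 133 and 104 (24 h) and 221 on both arrays of 30 h. At 48 h it read 208 and 251 and at 72 h 187 and 268. All 18 arrays after hepatectomy were below both of time 0. The log2 change was -1.47 ± 0.28 at 6 h (limma, adjusted p = 0.00545), -2.57 ± 0.28 at 12 h (adjusted p = 8.98e-06), -1.44 at 18 h (adjusted p = 0.00272) and -1.92 at 24 h (adjusted p = 0.000693). At 12 h the mean was 13.7% of that at time 0, and at 72 h 45.1% (-1.08, adjusted p = 0.0394). The call at 72 h was lost in 16 of 44 alternatives, without the first array of time 0 among them (-0.74). Without that array the calls at 6 h (-1.14), 18 h (-1.10) and 1 to 6 h (-0.70, against -1.04 with it) ended too. The call at 18 h also ended without the second array of 18 h (-0.88), and that at 6 h without the first of 6 h (-1.22).

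Scd1, the desaturase that makes oleate from stearate, did not pass the test at any time after hepatectomy. It read 2905 and 6034 at time 0, 5377 and 7686 (1 h), 5051 and 4883 (2 h), 5499 and 6309 (6 h) and 6531 and 5614 (12 h). It read 5413 and 4618 (18 h), 1907 and 4205 (24 h), 4480.2 and 3938 (30 h), 3580.1 and 648 (48 h) and 4884 and 6983 (72 h). The 2 arrays of time 0 span most later values, and 12 of the 18 later arrays lay between them. The log2 change over 12 to 30 h was 0.06 ± 0.40 (limma, adjusted p = 0.98), against a range of -2.20 to -0.79 for the other 9 members. At 48 h it was -1.44 ± 0.51 (adjusted p = 0.176), with 648 on the second array. A miss with a standard error of this size does not show that Scd1 did not change. Its second probe set changed by -0.57 over 12 to 30 h.

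Mid1ip1 and Pnpla3 fell at the most times. Mid1ip1, whose protein makes acetyl-CoA carboxylase assemble into active polymers, read 829 and 452 at time 0, 344 and 258 (1 h), 267 and 246 (2 h) and 102 and 121 (6 h). It read 104 and 59.7 (12 h), 247 and 131 (18 h), 289.6 and 164 (24 h) and 326 and 375 (30 h), and 330.4 and 201 (48 h) and 229 and 260.2 (72 h). All 18 later arrays were below both arrays of time 0, which themselves differed. It was lowered at 6 times, most at 12 h (-2.72 ± 0.29, limma adjusted p = 7.8e-06), where its mean was 12.8% of that at time 0. Over 1 to 6 h it fell by 1.51 ± 0.24 (adjusted p = 0.00106), and by 1.08, missing the threshold, without the first array of time 0. The calls at 24 h (-1.0) and 72 h (-0.85) ended without that array, and the call at 48 h was lost in 25 of 43 alternatives. Over 12 to 30 h the change was -1.65 ± 0.23 (adjusted p = 0.000199), a call kept in all alternatives.

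Pnpla3, a patatin-like lipid droplet protein known as a target of SREBP-1c, read 381 and 281 at time 0, 90.4 and 147 (1 h), 294 and 330.1 (2 h) and 109 and 158 (6 h). It read 53.5 and 90.8 (12 h), 57.8 and 54.6 (18 h), 57.1 and 29.6 (24 h) and 73.2 and 69.7 (30 h), and 74.6 and 88.0 (48 h) and 107 and 99.2 (72 h). Both arrays of 2 h lay within the range of time 0, and the other 16 later arrays were below it. Pnpla3 was lowered at 8 of 9 times, among them 1 h (-1.38 ± 0.26, limma adjusted p = 0.0103), 24 h (-2.57 ± 0.26, adjusted p = 8.34e-06) and 72 h (-1.52 ± 0.26, adjusted p = 0.00112). At 24 h its mean was 13.1% of that at time 0, and at 72 h 31.3%. Over 12 to 30 h it fell by 2.20 ± 0.21 on the log2 scale (adjusted p = 1.35e-06). The call at 1 h was lost when either the first array of time 0 (-1.17) or that of 1 h (-1.07) was left out, and that of 1 to 6 h (-0.89) in 27 of 44 alternatives. Those at 12, 18, 24, 30 and 72 h and over 12 to 30 h were kept in all alternatives.

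**Figure D2:**
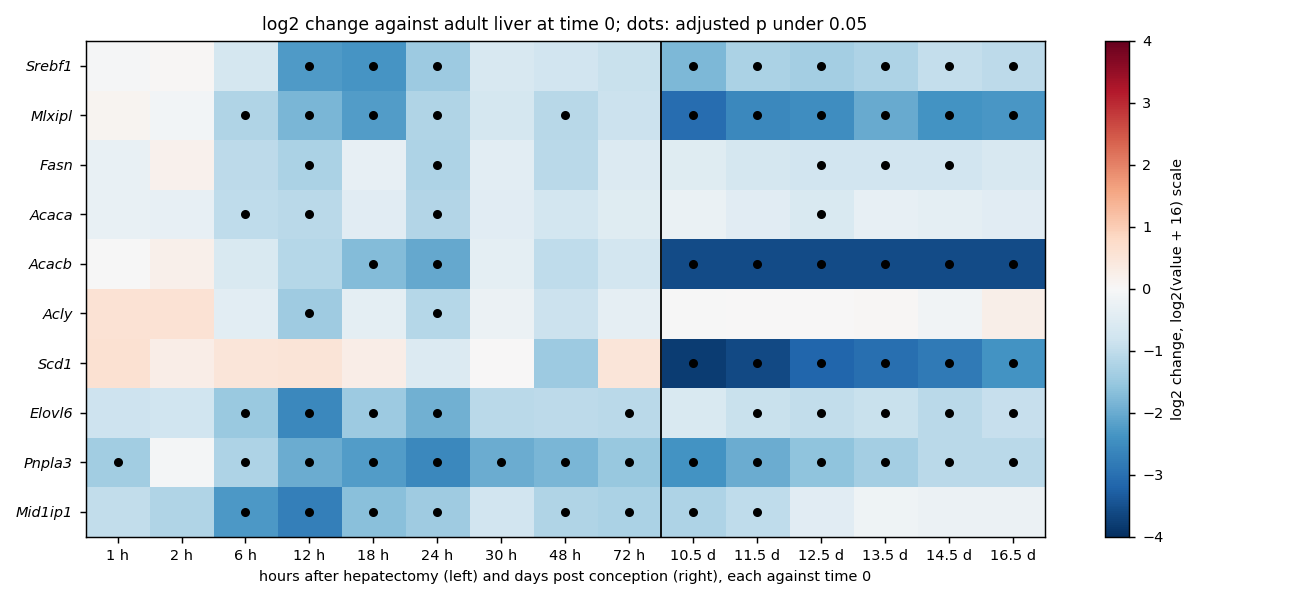
Change on the log2(value + 16) scale against time 0 (colour) for the 10 genes (vertical axis) at each time after hepatectomy and each embryonic stage (horizontal axis), with dots at an adjusted p under 0.05. Dots gather at 12 to 24 h and over the embryonic stages. Scd1 has none after hepatectomy, and the embryonic values of Acacb are set by readings below 0.

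Levels at 72 h stood between those of 12 to 30 h and those of time 0 for most members. All 10 were higher at 72 h than over 12 to 30 h, with a median change of 0.51 against 0.04 for all genes, but 0 passed the test, while 4.56% of all genes were raised and 0.462% lowered. At an unadjusted p under 0.05 the members Srebf1, Mlxipl, Acly, Elovl6 and Pnpla3 were higher at 72 h. The smallest adjusted p was that of Pnpla3 (0.67 ± 0.21, limma adjusted p = 0.0644). Without the first array of 24 h, 3 members were raised. Against time 0, 3 members were still lowered at 72 h (Elovl6, Pnpla3 and Mid1ip1), and the 72 h means of the 10 ran from 31.3% of time 0 in Pnpla3 to 133% in Scd1. Markers of cycling cells and of some other cell types moved at this time. Against time 0, 2.83% of all genes were raised at 72 h. All 6 cycling cell markers were raised at 72 h against time 0, with summed levels of 1893 and 2383, against 89.3 and 60.6. Of 8 macrophage markers 3 were raised, with sums of 4304 and 3987, against 2935 and 2895. Against 12 to 30 h, 4 of 8 stellate and mesenchyme, 4 of 8 macrophage and 6 of 6 cycling cell markers were raised at 72 h. Their part in the levels of the lipogenic genes at 72 h was not tested.

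In the embryonic liver most members were below their levels in adult liver at time 0. The mean of the 6 stages was lower than time 0 in 9 of the 10 genes, while 24.8% of all genes were lowered and 30.9% raised. Acacb is among the 9, and its other probe set went the opposite way (1.24). The median change of the 10 was -1.09, against 0.02 for all genes. Without the first array of time 0, 6 members were lowered. By stage the number was 6 at 10.5 days (20.6% of all genes), 7 at 11.5 (22%), 8 at 12.5 (20.3%), 7 at 13.5 (20.9%), 7 at 14.5 (19.6%) and 6 at 16.5 days (16.5%), with 0 raised at any stage, while 26.5%, 26.3%, 27.5%, 26.6%, 26.9% and 26.2% of all genes were raised at the same stages. The cell makeup of the tissue moved with this comparison. The summed level of 9 hepatocyte markers ran from 6577 to 34010 in the embryo, against 47490 to 50720 at time 0, with 7 of the 9 lowered. That of 7 erythroid markers ran from 2585 to 23800, against 945.6 to 1184, with 7 of 7 raised, and that of 6 cycling cell markers from 7027 to 12870, against 60.6 to 89.3. The part of the makeup in these changes was not tested.

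**Figure D3:**
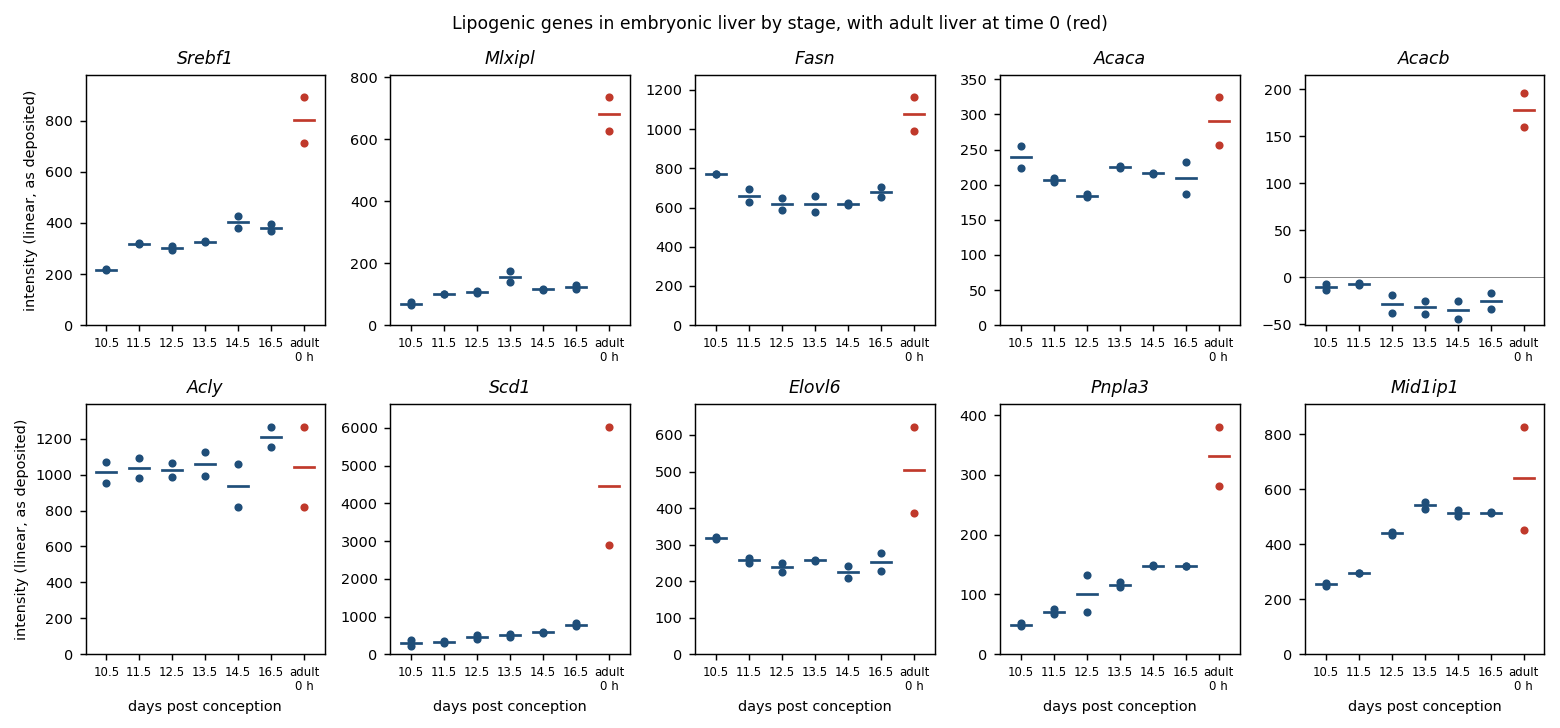
Intensity on a linear scale as deposited (vertical axis) of the 10 genes in embryonic liver by days post conception, with adult liver at time 0 on the right in red. Points are single arrays and bars are group means of 2 arrays. Scd1, Pnpla3 and Mid1ip1 climb over the stages, Acly lies within the range of time 0, and Acacb is below 0 on all 12 embryonic arrays.

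Scd1 was far lower in the embryo. Its 12 embryonic arrays ran from 213 to 821 with a median of 488, against 2905 and 6034 at time 0, and every embryonic array was below both of these. The log2 change was -3.13 ± 0.39 (limma, adjusted p = 5.64e-07), an 8.78-fold difference. Mlxipl ran from 63.6 to 175 with a median of 112, against 628 and 735 at time 0, and was lower by 2.47 ± 0.20 on the log2 scale (adjusted p = 7.5e-10). Srebf1 ran from 215 to 427 with a median of 322, against 892 and 712, and its log2 change was -1.28 ± 0.26 (adjusted p = 0.000247). In these 3 genes, and in Fasn, Acaca, Elovl6 and Pnpla3, all 12 embryonic arrays lay below both arrays of time 0.

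The synthesis and elongation enzymes were also below time 0 in the embryo, apart from Acly. Fasn ran from 577 to 771 with a median of 652, against 988 and 1163 at time 0 (log2 change -0.69 ± 0.23, limma adjusted p = 0.0159), and -0.58, missing the threshold, without the second array of time 0. Acaca ran from 182 to 255 with a median of 216, against 324 and 256 (-0.41 ± 0.17, adjusted p = 0.04), and was -0.25, missing the threshold, without the first array of time 0. Elovl6 ran from 208 to 322 with a median of 253, against 623 and 385 (-0.90 ± 0.22, adjusted p = 0.00134), and was not called without that array either (-0.56). A second probe set of Elovl6 changed by -1.40 in the embryo and by -1.44 at 12 to 30 h. Acly ran from 819.7 to 1262 with a median of 1060.0, against 819 and 1267, so that the groups overlapped throughout. Its log2 difference was 0.03 ± 0.20 (adjusted p = 0.907), and with the mean of its 6 probe sets it was -0.33 and called.

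Acacb read below 0 on all 12 embryonic arrays, from -44.5 to -6.10, against 196 and 159.7 at time 0, and no fold is given for values at or below 0. Its other probe set went the opposite way, at 44.4 to 171 in the embryo against 58.4 and 12.2 at time 0, a log2 change of 1.24. Pnpla3 ran from 47.8 to 149 with a median of 116, against 381 and 281, and was lower by 1.58 ± 0.20 (limma, adjusted p = 6.33e-07). Mid1ip1 ran from 249 to 555 with a median of 474, against 829 and 452, and its 6 arrays from 13.5 days on lay within the range of time 0. Its log2 change of -0.56 ± 0.23 (adjusted p = 0.0401) was -0.13 without the first array of time 0.

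Within the embryonic series 4 members rose with the day of development, against 16.4% of all genes, and 0 fell. Pnpla3 read 51.6 and 47.8 at 10.5 days, 67.0 and 76.1 at 11.5, 132 and 70.0 at 12.5, 112 and 121 at 13.5, 147 and 149 at 14.5 and 148 and 147 at 16.5 days, a log2 change of 0.23 ± 0.04 per day (limma, adjusted p = 8.38e-05). Mid1ip1 read 261 and 249, 294 and 296, 446 and 435, 555 and 530.0, 527 and 503, and 515 and 516 at the same stages, or 0.17 ± 0.04 per day (adjusted p = 0.00392). Both genes climbed up to 13.5 or 14.5 days and held a level after that. Scd1 read 383 and 213 at 10.5 days and 821 and 758 at 16.5 days, with 0.24 ± 0.07 per day (adjusted p = 0.0203), a call lost without the second array of 10.5 days (0.19) or either of 16.5 days. Mlxipl had 0.11 ± 0.04 per day (adjusted p = 0.0451), with its highest pair, 175 and 138, at 13.5 days, and this call was lost in 20 of 43 alternatives. Without the second array of 10.5 days or either of 16.5 days 2 members rose. The first array of 10.5 days had log2 ratios of 3 prime over 5 prime probes of 1.49 for Gapdh and 0.90 for Actb, against -0.43 to -0.17 and 0.33 to 0.64 on the other 11 embryonic arrays, and the lowest median of all arrays (69.75). Without it 3 members rose, with slopes of 0.23 for Pnpla3, 0.18 for Mid1ip1 and 0.28 for Scd1, and Mlxipl was not called (0.11). The summed level of the hepatocyte markers moved the same way, with 7121 and 6577 at 10.5 days and 33670 and 33980 at 16.5 days, and 8 of its 9 genes rose over the stages. Its part in the rise of these 4 genes was not tested. A moderated F test over the stages called 2 members, Pnpla3 (adjusted p = 0.00211) and Mid1ip1 (adjusted p = 0.0303), against 21.2% of all genes, and between 1 and 4 when single arrays were left out (4 without either array of 48 h).

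Genes around the pathway moved in part with the set. At 12 to 30 h 2.18% of all genes were lowered and 2.61% raised. Of 9 measured genes that supply carbon and NADPH, 2 were lowered at 12 to 30 h, 0 were raised, and the median was -0.22. Acss2, which makes acetyl-CoA from acetate, had a median of 264 and a highest value of 559 over the 8 arrays, against 751 and 845 at time 0, and fell by 1.36 ± 0.23 (limma, adjusted p = 0.0013). Pklr, the liver pyruvate kinase and a known ChREBP target, had a median of 248 (207 to 302), against 389 and 387, and fell by 0.63 ± 0.17 (adjusted p = 0.0289), a call lost without either array of time 0, the second of 18 h or the first of 30 h. Of 12 genes of chain modification and activation 2 were lowered and 0 raised (median -0.17). Thrsp, the Spot 14 protein related to Mid1ip1, had a median of 981 (501 to 2989), against 2551 and 3986, and fell by 1.68 ± 0.32 (limma, adjusted p = 0.0035). That call was lost without the second array of time 0, with the mean of its probe sets or with the adult arrays alone. The acyl-CoA synthetase gene Acsl3 fell by 0.74 ± 0.15 (adjusted p = 0.00638), lost without either array of time 0. At 72 h Acss2 (0.93 ± 0.23), Acsl3 (0.66 ± 0.15) and Thrsp (1.20 ± 0.32) were raised against 12 to 30 h, and each of these calls ended without either array of 72 h.

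Glycerolipid assembly did not fall as a list. Of its 11 genes at 12 to 30 h 1 was lowered and 2 were raised, with a median of 0, beside 2.18% lowered and 2.61% raised among all genes. Lpin1, a phosphatidate phosphatase that is also a fasting-induced coactivator, had a median of 547 (232 to 718), against 137 and 214 at time 0, and rose by 1.31 ± 0.28 (limma, adjusted p = 0.00732). That call ended without the first array of time 0, without ambiguous probe sets or with the probe set of highest mean log2 value. Lpin1 was already raised at 1 to 6 h (2.13 ± 0.29, limma adjusted p = 0.000171). Plin2, which coats lipid droplets, had a median of 4380 (2223 to 6798), against 1365 and 2485, and rose by 1.14 ± 0.26 (limma, adjusted p = 0.0128). This call ended without the first array of time 0 or with the adult arrays alone. Gpam, the mitochondrial glycerol-3-phosphate acyltransferase, was lowered (-0.73 ± 0.21, adjusted p = 0.0496), and 32 of 44 alternatives ended that call.

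The known regulators of the 2 factors were measured in the same arrays. Of 15 genes of SREBP processing and its regulators 0 were called at 12 to 30 h by limma (4 at an unadjusted p under 0.05), and of 8 genes that control acetyl-CoA carboxylase 0 (2 at an unadjusted p under 0.05). Insig2, which holds SREBP in the endoplasmic reticulum, had a log2 change of 1.01 ± 0.32 over that phase (adjusted p = 0.0802). At 12 h alone 2 of the 15 were lowered and 2 raised, while 4.64% and 4.23% of all genes were. Scap, which escorts SREBP to the Golgi, fell at 12 h (-0.79 ± 0.21, limma adjusted p = 0.0187, against -0.46 and not called over the phase), as did Srebf2, the cholesterol-side relative of Srebf1 (-0.67 ± 0.20, adjusted p = 0.0391). Mlxip (0.65 ± 0.17) and Fbxw7, which marks SREBP for degradation (0.53 ± 0.16), rose at 12 h (adjusted p = 0.0187 and 0.0395). These 4 calls each ended without either array of time 0 and without the second array of 12 h, where Scap was -0.70, Srebf2 -0.55, Mlxip 0.60 and Fbxw7 0.63, and that of Fbxw7 also without the first (0.42). Prkaa2, a catalytic subunit of the kinase that inhibits acetyl-CoA carboxylase, had a log2 change of -0.93 ± 0.29 at 12 h (adjusted p = 0.0465), a call lost in 28 of 44 other settings and -0.69 without the second array of 12 h. Irs1, an insulin receptor substrate, fell at 12 h (-1.19 ± 0.22, adjusted p = 0.00129) and 18 h (-0.87 ± 0.22, adjusted p = 0.0178), the call at 18 h being lost if the second array of 18 h (-0.57) or the first of time 0 (-0.71) was left out. Of 10 insulin signalling genes 1 was raised at 12 to 30 h (2.61% of all genes). This was Irs2, another such substrate known to rise in fasting, with a median of 85.3 (69.5 to 116), against 26.0 and 56.3 at time 0 (0.89 ± 0.22, adjusted p = 0.0228), a call lost without the first array of time 0. It rose by 1.81 ± 0.23 at 1 to 6 h (adjusted p = 0.000105).

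Some genes known to rise in fasting were raised in the early and middle phases. Of 10 measured, 4 were raised at 1 to 6 h and 3 at 12 to 30 h, with 0 lowered, while 0.726% and 2.61% of all genes were raised. Igfbp1, an insulin-repressed binding protein of insulin-like growth factors, had a median of 2352 at 12 to 30 h (386 to 4523), against 44.8 and 243.6 at time 0, and rose by 3.77 ± 0.39 (limma, adjusted p = 5.1e-06). Pdk4, the kinase that shuts off pyruvate dehydrogenase, rose by 2.17 ± 0.37 (limma, adjusted p = 0.0012), with single arrays between 33.1 and 1854 and group means of 1060 (12 h), 1212 (18 h), 103 (24 h) and 34.95 (30 h). Igfbp1 and Pdk4 rose more at 1 to 6 h (5.47 and 3.21). The part of these genes in the fall of the lipogenic set was not tested. Angptl4, which inhibits lipoprotein lipase, rose by 1.51 ± 0.30 (limma, adjusted p = 0.00441). That call ended without the first array of time 0, without ambiguous probe sets or with the adult arrays alone, and the smallest change over the alternatives was 0.31. At 72 h Pdk4 was lower than the average of 12 to 30 h (-1.55 ± 0.37, limma adjusted p = 0.013), a call that ended without either array of 72 h. That average is set mostly by 12 and 18 h (1060 and 1212), far above 24 and 30 h (103 and 34.95). The rise of Pdk4 over 12 to 30 h and its lower level at 72 h therefore do not describe 24 and 30 h. Feeding and the hour of the day at which liver was taken are not given in the labels used here.

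**Figure D4:**
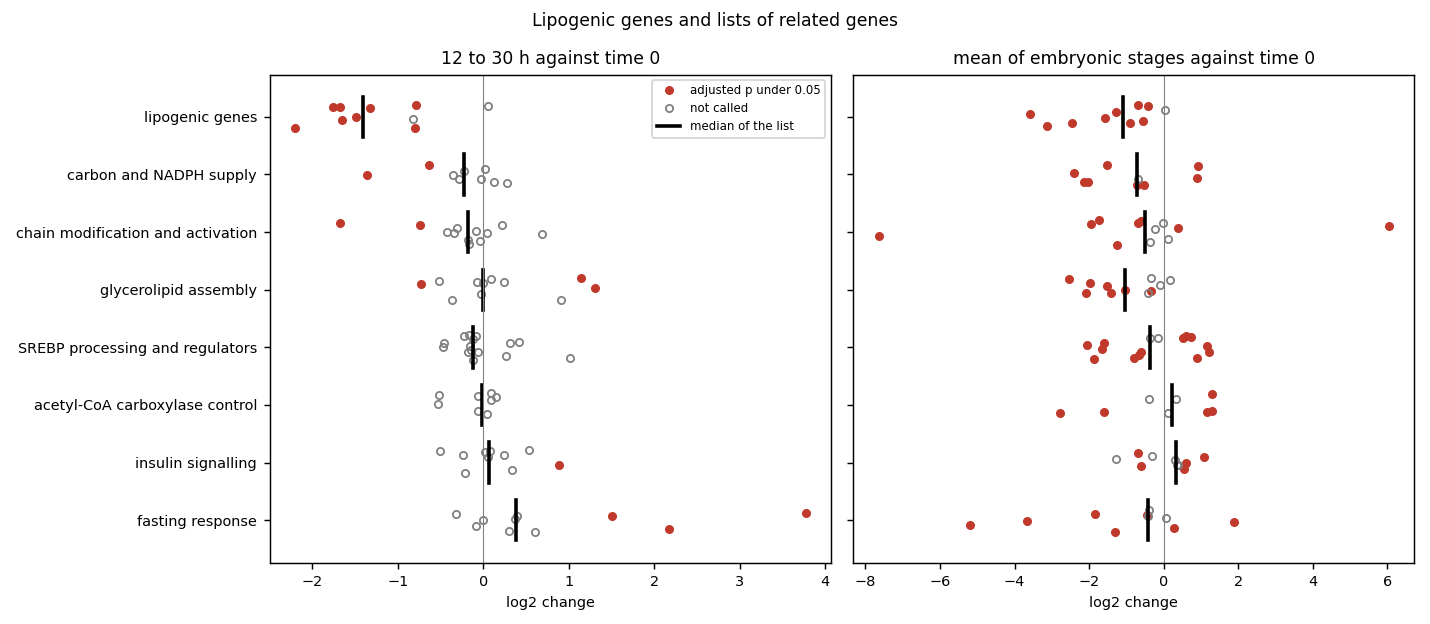
Log2 change against time 0 of each gene (points, filled red at an adjusted p under 0.05) in the lipogenic set and in 7 lists of related genes, at 12 to 30 h (left) and for the mean of the embryonic stages (right). Black bars are list medians, which at 12 to 30 h run from -1.41 in the lipogenic set to 0.38 in the fasting response.

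Markers of cell types and of cycling cells in adult liver were checked beside the fall of 12 to 30 h. In that phase 2.18% of all genes were lowered and 2.61% raised. The summed level of the 9 hepatocyte markers was 45500 to 62000 on those 8 arrays, against 47490 to 50720 at time 0, and 0 of 9 were called by limma (2 at an unadjusted p under 0.05). Of 6 adipocyte markers Adipoq read below 0 at time 0 and on all 8 arrays (-48.9 to -20.0). The sum of the 6 was 1902 and 1059 at 12 h and 1748 and 2440 at 18 h, against 498.8 and 502.2 at time 0. It was 483.7 and 796.7 at 24 h and 509 and 469.6 at 30 h. Cidec (1.71 ± 0.27, limma adjusted p = 0.000566) and Fabp4 (1.61 ± 0.27, adjusted p = 0.00116), a lipid droplet protein and a fatty acid carrier, were raised. Of 8 stellate and mesenchyme markers 2 were lowered, Pdgfrb (-0.66 ± 0.12, limma adjusted p = 0.00246) and Col3a1 (-0.80 ± 0.20, adjusted p = 0.0195). At 12 h alone 4 of the 8 were lowered (4.64% of all genes). The summed level of the 8, to which other genes contribute most, was 2313 to 3242, against 1933 and 2467 at time 0. Marco was raised among 8 macrophage markers (0.97 ± 0.24, adjusted p = 0.0202; sum 2245 to 3166, against 2895 and 2935) and Lyve1 among 8 endothelial markers (0.88 ± 0.16, adjusted p = 0.00238; sum 1290 to 1691, against 1466 and 1775). Of 7 erythroid, 4 bile duct and 6 cycling cell markers 0 were called by limma (1, 0 and 0 at an unadjusted p under 0.05). Single arrays of time 0 decided the calls of Pdgfrb, Col3a1, Marco and Lyve1, with Pdgfrb at -0.58 without the first and Col3a1 at -0.56, Marco at 0.70 and Lyve1 at 0.75 without the second, none of them called. The part of these cell types in the fall of the lipogenic genes was not tested.

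In the embryo the neighbouring genes went in both directions, while 24.8% of all genes were lowered and 30.9% raised. Carbon and NADPH supply had 6 lowered and 2 raised of 9. Acss2 ran from 67.2 to 242, against 751 and 845 at time 0 (-2.14 ± 0.23, limma adjusted p = 4.67e-08), and the fructokinase gene Khk from 87.9 to 284, against 842 and 929 (-2.02 ± 0.22). Pgd, an enzyme of the pentose phosphate pathway, ran from 379 to 863, against 309 and 229 (0.92 ± 0.13, adjusted p = 4.91e-06). Chain modification had 6 lowered and 2 raised of 12. Scd2, a desaturase of the same family as Scd1, ran from 2450 to 3511, against 40.7 and 18.2 at time 0, a log2 change of 6.04 ± 0.27 (adjusted p = 8.29e-14), while Scd1 was lower in the same arrays. Thrsp read below 0 on all 12 embryonic arrays (-16.9 to -5.24), against 2551 and 3986. Glycerolipid assembly had 7 lowered and 0 raised of 11, among them Agpat2 (58.4 to 175, against 771 and 798, -2.55 ± 0.30).

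Regulators also differed between embryo and adult. Of 15 genes of SREBP processing and its regulators 7 were lowered and 6 raised. Insig2 ran from 168 to 336, against 918 and 1001 at time 0 (-2.06 ± 0.31, limma adjusted p = 7.75e-06), and Nr1h3, the liver X receptor that activates Srebf1, from 69.3 to 101, against 345 and 227 (-1.65 ± 0.21, adjusted p = 5.86e-07). Mlxip, a paralogue of Mlxipl, was raised, at 71.4 to 167 against 35.01 and 32.3 (1.22 ± 0.13, adjusted p = 7.11e-08), as was Fbxw7 (1.17 ± 0.12). Of 8 genes that control acetyl-CoA carboxylase 2 were lowered and 3 raised, of 10 insulin signalling genes 2 and 3, and of 10 fasting genes 5 and 2, beside 24.8% lowered and 30.9% raised among all genes. The shares of the first 2 of these lists were near those of all genes.

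Members varied together across the adult groups to different degrees. Over the 10 group means the median correlation of a member with the other 9 was 0.66 to 0.76 for 9 members and 0.20 for Scd1. The genes outside the set whose adult profile was most like that of Srebf1, among 9084 with a mean above the median of all genes, were Klb (r = 0.966) and Epor (0.962). For Mlxipl they were Nrep and Igfals (both 0.976), for Fasn Akt1 (0.943) and Ttll13 (0.925), and for Pnpla3 Dapk1 (0.931) and Cuedc2 (0.922). For the mean profile of the set they were Laptm4b (0.962) and Nsmf (0.959). Over all 16 groups Klb (0.951) again came first for Srebf1, Igfals (0.98) for Mlxipl, Ttll13 (0.849) for Fasn, Rmdn3 (0.775) for Pnpla3 and Rnpepl1 (0.91) for the mean profile. These values describe groups that share arrays and the gap between adult and embryo, and they carry no test.

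Array medians ran from 69.8 to 79.5, and 2.54% to 4.02% of an array's values lay under 0. The second array of 48 h had log2 ratios of 3 prime over 5 prime probes of 2.42 for Actb and 1.22 for Gapdh, against 0.57 to 1.72 and -0.44 to 0.32 on the other 19 adult arrays, and the lowest sum of hepatocyte markers among adult arrays (35380). Scd1 (648), Fasn (340.1) and Acacb (50.9) were lower on it than on the first array of 48 h, and the part of RNA quality in this was not tested. The next highest Gapdh ratios of adult arrays were 0.20 and 0.32 at 2 h and 0.30 on the second array of 12 h. Their Actb ratios were 1.44, 1.72 and 1.39. The remaining adult arrays had Gapdh ratios of -0.17 or lower. The part of RNA quality in the levels at 2 and 12 h was not tested either. With both arrays of 48 h left out, the counts that could be recalculated stayed within 1.5 times except 72 h against 12 to 30 h (1 raised) and the F test over stages (4).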

How the data were processed

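Arrays of 32 liver samples in 16 groups were used, with groups taken from the source names. For the embryonic samples an age characteristic and a description in the labels contradict the source names, which were followed. The deposited values are intensities per probe set on a linear scale, some below 0, and per the labels' protocols total RNA was isolated with Trizol and labelled as biotin cRNA. Which software and normalization the authors applied to the intensity values is not given in the sources used here. The values were used as deposited, with values below 0 set to 0, 16 added and log2 taken.

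Of 45101 probe sets 34958 were listed with 1 gene, and for each of 18194 genes the one with the highest mean over 32 arrays was kept. limma 3.58.1 in R 4.3.3 fitted a mean per group on all arrays (16 residual degrees of freedom), with moderated tests and a trend on intensity. A gene was called where its adjusted p (Benjamini-Hochberg, within a comparison) was under 0.05. Named genes are all members, up to 4 called genes of smallest p per related list and comparison, and the most similar profiles among bright genes. Insig2 and Scap at 12 to 30 h were named after their values were seen. The members and lists were chosen with earlier results of these data known. The procedure was tested on simulated data. No pair of arrays held identical values. The array numbers did not pair the groups: correlations of array differences between groups ran from -0.36 to 0.56 with a median of -0.01, over 0.1 in 17 of 120. The number of arrays limits the precision. Some genes of the related lists are not reported here. Motifs were counted in RefSeq windows of GRCm38.p6, and no entry was used for Scd1.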

Additional observations from a re-analysis of the deposited data

How the results depend on the processing

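Of 210 comparisons of members, those called were recalculated 4537 times in all under other settings. Of these 4248 kept the call, 279 lost it and 10 turned its direction, all of Acacb. Acacb turned where the probe set of highest mean log2 value was read, a setting added after seeing the data, with 0.49 at 12 to 30 h, 0.65 at 18 h, 0.28 at 24 h and 1.31, 1.37, 0.63, 0.90, 1.56 and 1.67 at the embryonic stages (1.24 for their mean). With the mean of all probe sets of a gene Acly, otherwise not called, changed by -0.40 at 12.5 days and -0.33 over the embryo, and Akt1 and Mbtps1 by 0.02 per day. Agpat3 changed by 0.03 in the embryo without ambiguous probe sets. With the adult arrays alone the early phase (1 to 6 h) had 0 members lowered, the middle phase (12 to 30 h) 5, the late phase (48 to 72 h) 1 and the 90 pairs 18, and with the embryonic arrays alone the F test over stages called 5. Array weights gave 2 at 48 to 72 h and 3 raised at 72 h against 12 to 30 h. Quantile normalization gave 8 lowered at 48 to 72 h and 1 by the F test over stages. Without both arrays of 48 h, also added after seeing the data, 1 was raised at 72 h against 12 to 30 h and 4 were called over stages. The cause of these changes was not tested, except that fits of fewer arrays have fewer residual degrees of freedom. With single arrays left out, the counts ran from 0 to 3 in the early, 6 to 9 in the middle and 1 to 7 in the late phase, 0 to 3 raised at 72 h against 12 to 30 h, 6 to 9 in the embryo, 2 to 5 rising over stages, 19 to 44 pairs, 9 to 10 by the F test over times and 1 to 4 over stages. With the array number as a replicate block the counts were 2 in the early, 8 in the middle and 4 in the late phase, 9 in the embryo, 3 rising and 36 pairs, and the numbers do not mark a pairing. With 2 arrays a group, and with 2 arrays of time 0 behind each comparison with it, changes near 1 on the log2 scale were often not called.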

Other observations

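Some genes that supply or use fatty acids also changed over the embryonic stages. Of 11 genes of glycerolipid assembly 5 rose per day and 0 fell, beside 16.4% rising and 11.5% falling among all genes, among them Dgat2, which makes triglyceride (0.24 ± 0.06 per day on the log2 scale, limma adjusted p = 0.00544), with group means of 327 at 10.5 days and 887 at 16.5 days. Of 9 genes of carbon and NADPH supply 3 rose and 1 fell. Pklr averaged 296 at 10.5 days, 687 at 11.5 days and 930.3 at 16.5 days (0.21 ± 0.03 per day, adjusted p = 1.19e-05), and it was raised in the embryo against time 0 (389 and 387). Pklr also encodes the red cell pyruvate kinase, and the summed level of the 7 erythroid markers was 2742 and 2585 at 10.5 days and 23480 and 23800 at 16.5 days. Igfbp1 rose by 0.46 ± 0.07 per day (adjusted p = 3.88e-05). The part of the cell makeup in these changes was not tested.

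Gluconeogenic G6pc, which releases glucose from the liver, was raised at 1 to 6 h (3.79 ± 0.41, limma adjusted p = 1.18e-05), with group means of 4739 at 1 h, 4045 at 2 h and 1292 at 6 h, against 236 and 152 at time 0. The lipogenic factors Srebf1 and Mlxipl were within or near the range of time 0 at 1 and 2 h. A link between them and G6pc was not tested.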
